A study of Mus musculus with 8 samples.

Results

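Transcripts of the aryl hydrocarbon receptor (Ah receptor, gene Ahr), of its dimer partner Arnt and of 6 genes known as its targets were followed in splenic CD4 T cells of wild-type and Ahr-deficient mice, with and without the receptor's ligand TCDD. The members were all probe sets of the array whose annotation gives Ahr, Arnt, Ahrr, Tiparp, Cyp1a1, Cyp1a2, Cyp1b1 or Nqo1 as the only gene. These are 14 of 22626 probe sets tested, for 8 of 12393 genes. Tiparp has 3 probe sets, Cyp1b1 has 3, Ahr and Arnt have 2 each, and the other 4 genes have 1. Each probe set reads 1 stretch of a transcript through several short oligonucleotides, and 0 further probe sets named a member beside another gene.

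The wild-type mice (WT) were C57BL/6, and the mutant mice (KO) carried a knockout of Ahr backcrossed to C57BL/6. All were females aged 8 to 12 weeks. Each received 1 intraperitoneal injection, either 10 µg/kg TCDD (dioxin, a stable high-affinity ligand of the receptor) in corn oil or the DMSO solvent in corn oil, and was killed 24 h later. CD4 T cells were sorted from the spleen by flow cytometry. Each of the 4 groups (WT DMSO, WT TCDD, KO DMSO, KO TCDD) was hybridised to 2 arrays. Because every array held a pool of 4 animals, the spread between arrays is that between pools, and p-values measure that spread. The sources used here do not say which part of Ahr was deleted. In these pooled samples, fewer cells of a type and less RNA per cell cannot be told apart.

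The Ah receptor is a transcription factor of the bHLH-PAS family that waits in the cytosol bound to HSP90 and its co-chaperones. On binding a ligand such as TCDD it enters the nucleus, pairs with ARNT and binds DNA at xenobiotic response elements, whose core letters are GCGTG. Its best known targets encode xenobiotic-metabolising enzymes (Cyp1a1, Cyp1a2, Cyp1b1, Nqo1) and 2 brakes on the pathway itself, Ahrr and Tiparp. Among CD4 T cells the receptor is best known from Th17 and regulatory subsets, which are a minority in the resting spleen.

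The promoters of 3 targets are shown because they differ in the data that follow. Tiparp is the member called between genotypes, by 2 of its 3 probe sets. Ahrr came nearest to a difference after TCDD in WT, and Cyp1a1 is the classical target of TCDD. Each line gives the 250 bases before the transcription start on the gene's strand, from RefSeq (build GRCm38.p6). Capitals mark the core GCGTG, or CACGC where it lies on the other strand.
Tiparp: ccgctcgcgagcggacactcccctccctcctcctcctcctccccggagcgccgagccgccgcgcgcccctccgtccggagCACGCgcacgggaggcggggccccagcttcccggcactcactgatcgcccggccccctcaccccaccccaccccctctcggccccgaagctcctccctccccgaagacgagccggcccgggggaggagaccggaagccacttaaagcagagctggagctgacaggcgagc
Ahrr: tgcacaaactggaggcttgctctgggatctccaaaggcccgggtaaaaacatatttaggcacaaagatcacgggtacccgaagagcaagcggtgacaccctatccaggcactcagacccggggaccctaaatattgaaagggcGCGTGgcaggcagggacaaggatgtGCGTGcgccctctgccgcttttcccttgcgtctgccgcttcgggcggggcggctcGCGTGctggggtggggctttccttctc
Cyp1a1: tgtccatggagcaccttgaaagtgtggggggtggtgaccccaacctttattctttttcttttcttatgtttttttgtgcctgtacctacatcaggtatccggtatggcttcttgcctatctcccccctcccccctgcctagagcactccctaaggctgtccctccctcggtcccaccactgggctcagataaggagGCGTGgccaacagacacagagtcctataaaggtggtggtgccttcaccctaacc
The Tiparp window lies at chr3:65528197-65528446 (plus strand), that of Ahrr at chr13:74292332-74292581 (minus strand) and that of Cyp1a1 at chr9:57697363-57697612 (plus strand).

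The core occurred 3 times before Ahrr, starting 107, 82 and 27 bases before the transcription start. It occurred 1 time before Cyp1a1 (54 bases), 1 time before Tiparp (170 bases, other strand), 1 time before Arnt (29 bases) and 1 time before Cyp1b1 (76 bases, other strand). The windows of Cyp1a2 and Nqo1 held 0 matches, and Ahr had no entry in the promoter table. Of 32851 promoter windows of this length, 28.2% held the core on either strand. The longer form TNGCGTG, which contains the core, was found in 4.1% of all windows and, among the members, in that of Ahrr. The core is also 1 form of the element bound by HIF1 with ARNT. A match is a description of the letters and not a measured binding site.

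Values are RMA log2 expression levels, on which a difference of 1 is a 2-fold change. Over the 8 arrays the members ranged from Tiparp 1426721_s_at, whose mean of 8.92 lay at the 91.5th percentile of all probe set means, to Cyp1b1 1416613_at, whose mean of 3.97 lay at the 2.25th. The probe sets of Ahr and Tiparp lay above the median of all probe set means (6.13), and all probe sets of the other 6 genes lay below it. These positions tell how bright a probe set was and do not order the genes by transcript amount. On dim probe sets background compresses differences, so a small change in Arnt, Ahrr, the Cyp1 genes or Nqo1 could have gone undetected.

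**Figure D1:**
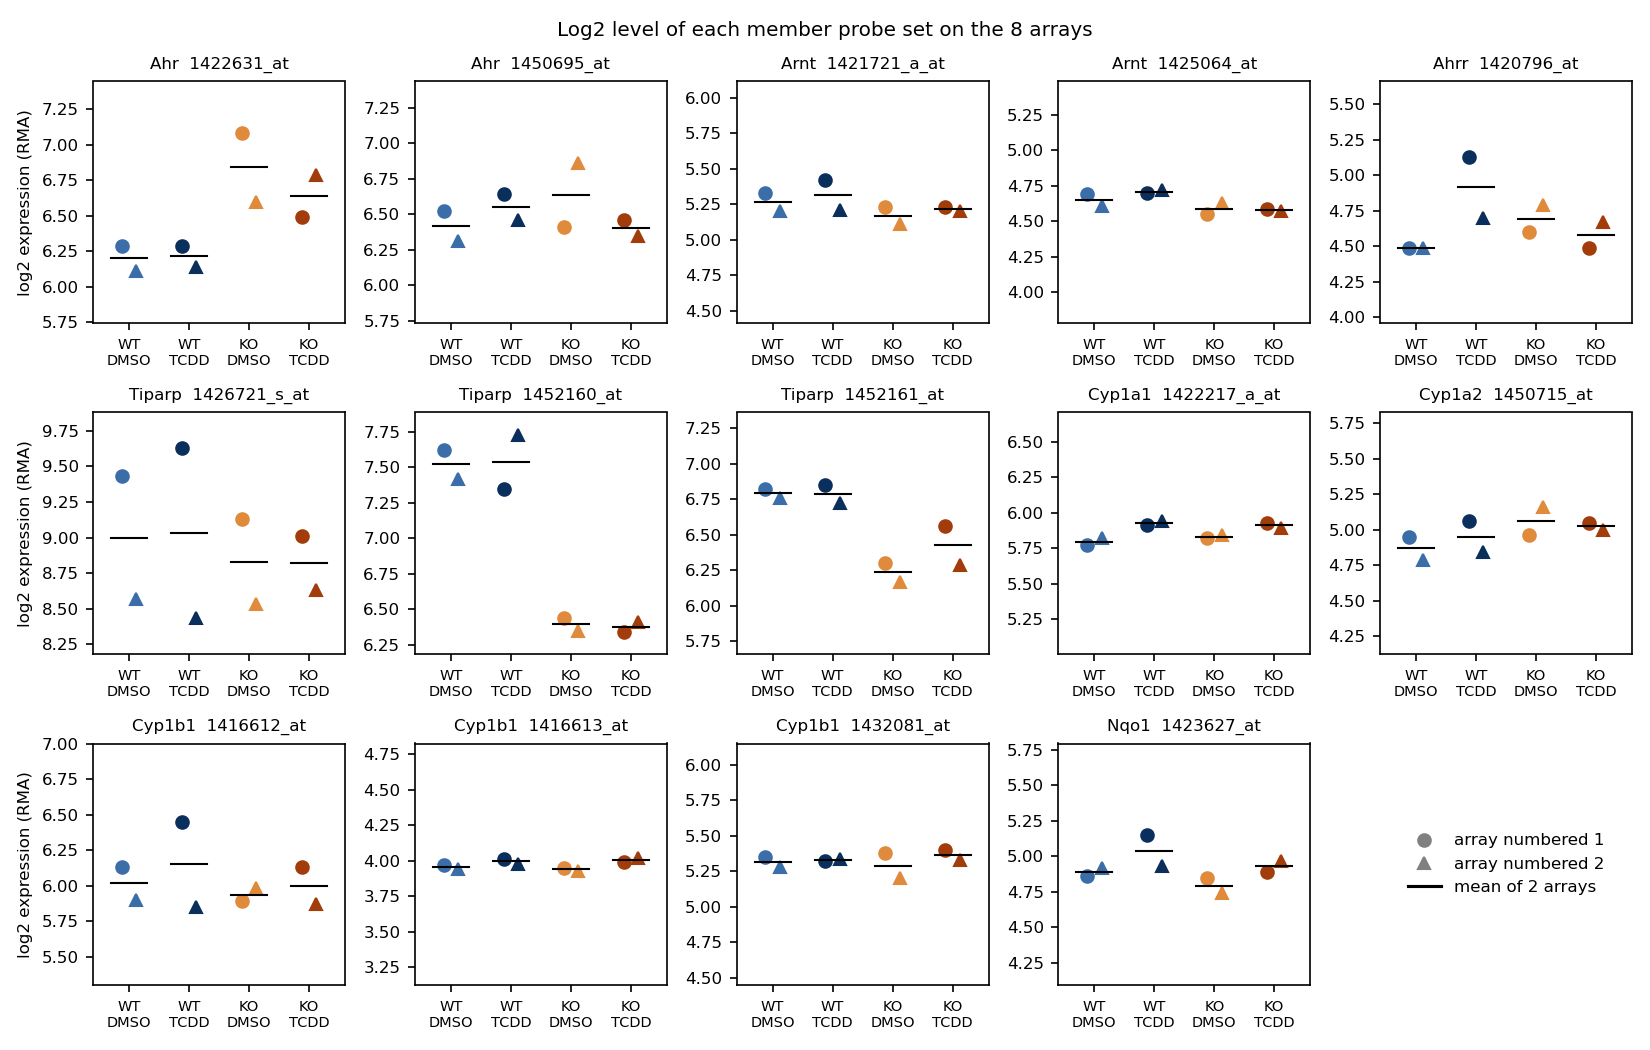
Log2 level (RMA) of the 14 member probe sets on the 8 arrays, with circles for arrays numbered 1, triangles for arrays numbered 2 and a line at the mean of the 2 arrays of a group; every panel spans the same log2 range. Tiparp 1452160_at reads 7.35 to 7.73 in WT and 6.34 to 6.44 in KO, while Tiparp 1426721_s_at splits by array number.

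Tiparp was the one member called different between KO and WT, by 2 of its 3 probe sets (all 8 arrays, 4 against 4; limma, Benjamini-Hochberg (BH) adjusted p under 0.05 over all 22626 probe sets). It encodes a mono-ADP-ribosyltransferase (PARP7) that is induced by the Ah receptor and in turn represses it. Probe set 1452160_at read 7.62 and 7.42 in WT DMSO, 7.35 and 7.73 in WT TCDD, 6.44 and 6.35 in KO DMSO, and 6.34 and 6.41 in KO TCDD. All 4 KO arrays lay below all 4 WT arrays, and the KO arrays were tightly grouped. The KO mean was 6.39 ± 0.05 and the WT mean 7.53 ± 0.18 (SD over 4 arrays each), so the level fell by 1.15 on the log2 scale (SE 0.10), which makes WT 2.21-fold higher (95% interval 1.90 to 2.57; limma, BH adjusted p = 0.00424). This was the probe set with the fifth smallest p of all those tested. The fall was nearly the same size in each treatment, −1.13 (95% interval −1.50 to −0.75) among DMSO arrays and −1.17 (−1.54 to −0.79) among TCDD arrays in the model of 4 group means. With 2 arrays a group neither passed on its own (limma, BH adjusted p = 0.203 and 0.0784).

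The second Tiparp probe set, 1452161_at, moved the same way by less. It read 6.82 and 6.76 in WT DMSO, 6.85 and 6.72 in WT TCDD, 6.30 and 6.17 in KO DMSO, and 6.56 and 6.29 in KO TCDD. The genotypes did not overlap, and the level fell by 0.46 in KO (SE 0.09; WT 1.37-fold higher, 95% interval 1.19 to 1.59; limma, BH adjusted p = 0.0438). This call needed nearly all arrays: it held without KO TCDD replicate 1 (adjusted p = 0.0452) and was lost without any other single array. The adjusted p was then 0.0830 (without WT DMSO replicate 1), 0.103 (WT DMSO replicate 2), 0.0620 (WT TCDD replicate 1), 0.0927 (WT TCDD replicate 2), 0.0729 (KO DMSO replicate 1), 0.0695 (KO DMSO replicate 2) and 0.132 (KO TCDD replicate 2), all by limma with BH adjustment. The first probe set was called in each of these 8 fits, with a fall of 1.08 to 1.21.

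The third and brightest, 1426721_s_at, gave another picture. It read 9.43 and 8.57 in WT DMSO, 9.63 and 8.43 in WT TCDD, 9.13 and 8.53 in KO DMSO, and 9.01 and 8.63 in KO TCDD, in the order of the array numbers 1 and 2. The 4 arrays numbered 1 lay between 9.01 and 9.63 and the 4 numbered 2 between 8.43 and 8.63, without overlap. This was so for 2.61% of all probe sets in either direction, and for 2.02% with the arrays numbered 1 higher. The labels do not say what the numbers stand for beyond replicates. The gap between the 3′ and 5′ actin control probe sets, a sign of RNA quality, was 3.70 and 4.56 log2 units on the WT arrays numbered 1 (DMSO, TCDD) and 2.90 and 3.30 on those numbered 2. On the KO arrays it was 3.48 and 3.73 for number 1 and 3.6 and 3.82 for number 2, and its part in the split of 1426721_s_at was not tested. The genotypes overlapped (KO mean 8.83 ± 0.29, WT mean 9.02 ± 0.60, SD over 4 arrays each), with a difference of −0.19 (95% interval −0.84 to 0.46; limma, BH adjusted p = 0.767). That difference was not stable: with 1 array left out it ran from −0.39 (WT TCDD replicate 2 left out) to 0.02 (WT TCDD replicate 1 left out). With both WT arrays numbered 2 left out it was −0.71 (SE 0.19; limma, BH adjusted p = 0.188), and none of these fits called it.

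All 3 Tiparp probe sets were designed on the same expressed sequence tag, per the array annotation. An _s_at suffix marks a set whose probes match more than 1 transcript. Between 1452160_at and 1452161_at the genotype differences were 0.69 apart on the log2 scale (exact two-sided permutation p = 0.0286, the smallest that 70 arrangements allow). Adjusted over the 8 pairs of probe sets within a member gene, that p was 0.229. The difference of 0.96 between 1426721_s_at and 1452160_at had an exact permutation p of 0.0857 (0.229 after adjustment). Over the 8 arrays the levels of 1452160_at and 1452161_at had a Pearson r of 0.867, against 0.157 for 1426721_s_at with 1452160_at.

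**Figure D2:**
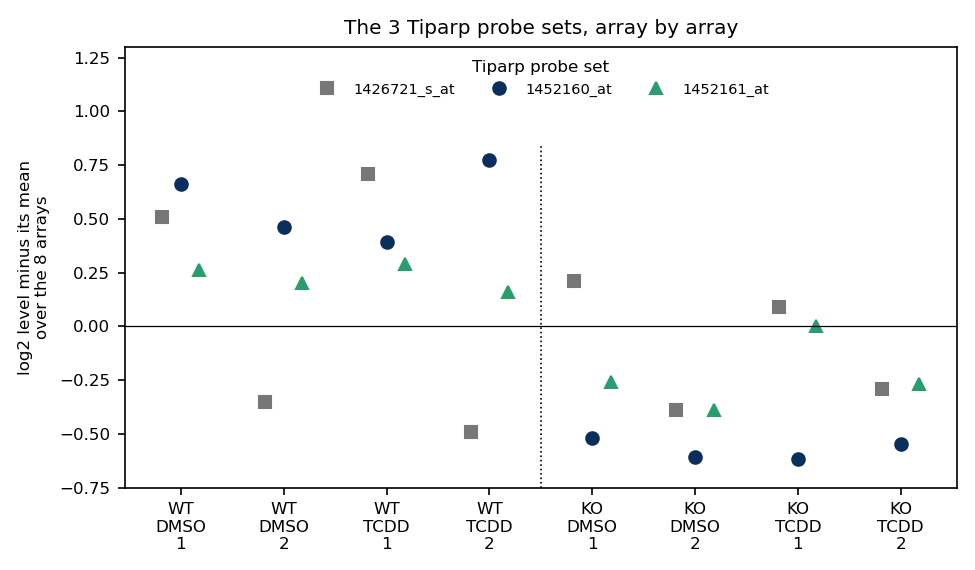
Level of each Tiparp probe set on each array, as log2 minus that probe set's mean over the 8 arrays (squares 1426721_s_at, circles 1452160_at, triangles 1452161_at); the dotted line parts WT from KO. The circles and triangles are lower in all 4 KO arrays than in any WT array, while the squares are higher on arrays numbered 1.

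Ahr is the deleted gene, and its probe sets still gave a signal in KO. Whether that signal is transcript or background was not tested. Probe set 1422631_at read 6.29 and 6.11 in WT DMSO, 6.29 and 6.14 in WT TCDD, 7.08 and 6.60 in KO DMSO, and 6.49 and 6.79 in KO TCDD. Every KO array lay above every WT array, with the highest on KO DMSO replicate 1. The difference of 0.53 (95% interval 0.24 to 0.83) missed the threshold (limma, BH adjusted p = 0.0658), with a two-sided p of 0.0286 in the exact permutation test of this probe set alone. It passed after a further quantile normalization (0.54; limma, BH adjusted p = 0.0439) and ranged from 0.42 (without KO DMSO replicate 1) to 0.62 when each array was left out. The second probe set, 1450695_at, read from 6.31 to 6.64 in WT and from 6.35 to 6.86 in KO, with overlap, and differed by 0.04 (95% interval −0.25 to 0.33; limma, BH adjusted p = 0.906). Both were designed on the same sequence tag, whose place relative to the deletion is unknown here, so the Ahr reading checks no genotype label.

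The dimer partner Arnt, which ARNT-dependent pathways such as hypoxia signalling also use, did not pass. Its probe set 1421721_a_at read 5.33, 5.20, 5.42 and 5.21 in WT (DMSO 1 and 2, then TCDD 1 and 2) and 5.23, 5.11, 5.23 and 5.20 in KO. The genotypes overlapped, with a difference of −0.10 (95% interval −0.27 to 0.08). Probe set 1425064_at read 4.69, 4.61, 4.70 and 4.72 in WT and 4.55, 4.63, 4.59 and 4.57 in KO, which overlapped through WT DMSO replicate 2 alone, with a difference of −0.10 (95% interval −0.24 to 0.05). The BH adjusted p was 0.534 and 0.454 (limma).

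The other 5 target genes did not pass between genotypes. Ahrr, a relative of the receptor that competes for ARNT, read 4.64 ± 0.13 in KO and 4.70 ± 0.30 in WT (difference −0.07, 95% interval −0.40 to 0.27). Cyp1a1, the monooxygenase that TCDD induces most, read 5.87 ± 0.05 and 5.86 ± 0.08 (0.01, −0.15 to 0.17). Cyp1a2, its liver-enriched neighbour, read 5.04 ± 0.09 and 4.91 ± 0.12 (0.13, −0.06 to 0.33). The 3 probe sets of Cyp1b1, a monooxygenase that also acts on steroids, differed by −0.12 (1416612_at, −0.43 to 0.20), −0.0025 (1416613_at, −0.14 to 0.14) and 0.005 (1432081_at, −0.16 to 0.17). Nqo1, a quinone reductase driven by both the Ah receptor and NRF2, read 4.86 ± 0.10 and 4.97 ± 0.13 (−0.10, −0.30 to 0.10; SD, n = 4 each). The genotypes overlapped for all 7 probe sets of these 5 genes, and their BH adjusted p ran from 0.434 to 0.989 (limma). For Cyp1a1 the interval of the WT to KO ratio of measured signal ran from 0.889 to 1.11, on a probe set below the median level.

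In all, 2 of the 14 member probe sets were called lower in KO, both of Tiparp, and 0 were called higher. Over all probe sets, 1.20% were called lower and 1.59% higher, 2.79% in either direction. The genotypes did not overlap for 3 member probe sets (both called Tiparp sets and Ahr 1422631_at), against 12.3% of all probe sets. The members' median difference was −0.08, with 5 of 14 above 0 and 9 below. Over all probe sets the median was −0.005, with 48.9% above 0. Probe sets of 1 gene share a transcript and are not independent.

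**Figure D3:**
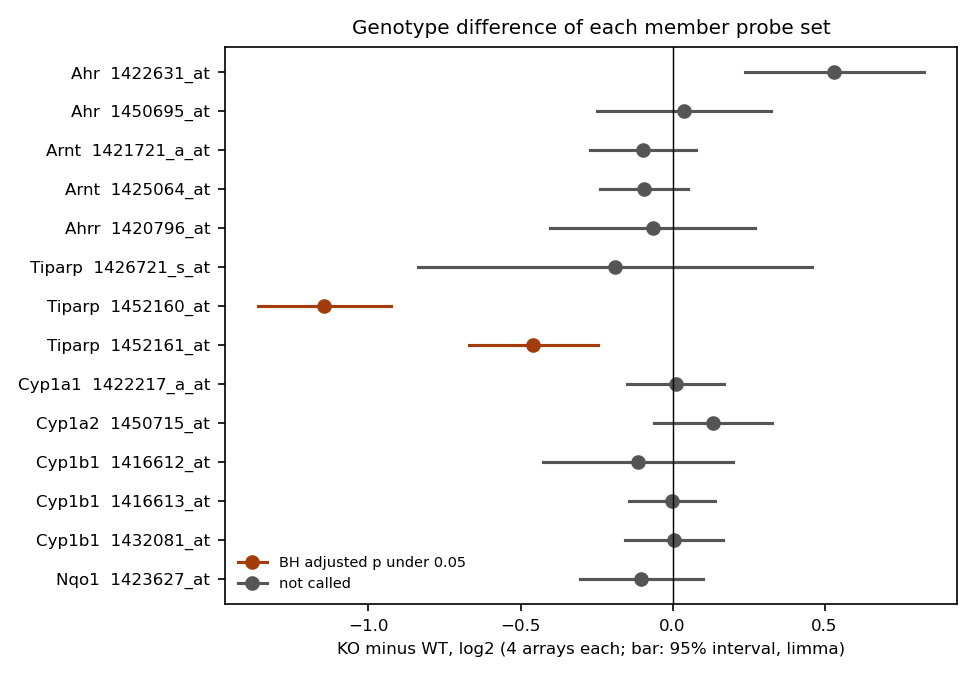
KO minus WT difference of each member probe set in log2 units, with its 95% interval from limma (4 arrays each); red marks BH adjusted p under 0.05. The 2 called Tiparp probe sets lie at −1.15 and −0.46, and Ahr 1422631_at at 0.53 does not pass.

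TCDD against DMSO in WT gave 0 called members (limma, BH adjusted p = 0.997 for each of the 14), as for all probe sets, of which 0% were called. Ahrr came nearest. It read 4.49 and 4.49 in WT DMSO, 5.13 and 4.70 in WT TCDD, 4.60 and 4.79 in KO DMSO, and 4.49 and 4.67 in KO TCDD. Both WT TCDD arrays lay above both WT DMSO arrays, but WT TCDD replicate 2 lay within the range of the KO arrays. The difference in WT was 0.43 (95% interval 0.02 to 0.83, unadjusted p = 0.0428, limma), a 1.34-fold change. Without WT TCDD replicate 1 it was 0.21, without WT TCDD replicate 2 it was 0.64, and with the actin gap as a covariate it was 0.26. WT TCDD replicate 1, the highest Ahrr reading, is also the array with the widest actin gap (4.56) and with a description that speaks of knockout mice. Ahrr was the 1 member with an unadjusted p under 0.05, against 2.79% of all probe sets.

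Cyp1a1 read 5.77 and 5.82 in WT DMSO, 5.91 and 5.94 in WT TCDD, 5.82 and 5.84 in KO DMSO, and 5.93 and 5.89 in KO TCDD. The TCDD arrays lay above the DMSO arrays in both genotypes, by 0.13 in WT (95% interval −0.10 to 0.36) and by 0.08 in KO (−0.15 to 0.31), neither of which passed. The upper bound in WT is a 1.29-fold rise. Nqo1 read 4.86 and 4.92 in WT DMSO, 5.15 and 4.93 in WT TCDD, 4.85 and 4.74 in KO DMSO, and 4.89 and 4.97 in KO TCDD. Its TCDD arrays were likewise the higher ones in both genotypes, by 0.15 (−0.14 to 0.44) and 0.14 (−0.15 to 0.42). Cyp1b1 1416613_at, at a level of 3.93 to 4.02, differed by 0.04 and 0.07. In WT, both TCDD arrays lay above both DMSO arrays for 5 of 14 members (Ahrr, Arnt 1425064_at, Cyp1a1, Cyp1b1 1416613_at and Nqo1), against 18.9% of all probe sets. In KO this was so for 3 of 14 (Cyp1a1, Cyp1b1 1416613_at and Nqo1), against 20.5%.

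No Tiparp probe set passed for TCDD in WT, with differences of 0.03 (1426721_s_at, 95% interval −1.09 to 1.15), 0.02 (1452160_at, −0.35 to 0.39) and −0.005 (1452161_at, −0.32 to 0.31). The upper bounds of these intervals are rises of 2.21-fold, 1.31-fold and 1.24-fold, in the same order. Cyp1a2 differed by 0.08 (−0.24 to 0.40), and Cyp1b1 1416612_at and 1432081_at by 0.14 (−0.38 to 0.65) and 0.02 (−0.25 to 0.28). On 1416612_at the array WT TCDD replicate 1 stood highest at 6.45, with the other 7 arrays between 5.85 and 6.13. Ahr differed by 0.02 and 0.14, and Arnt by 0.05 and 0.06. In KO the members differed by −0.23 (Ahr 1450695_at) to 0.19 (Tiparp 1452161_at), with 0 called, 0 with an unadjusted p under 0.05 (1.69% of all probe sets) and BH adjusted p of 1 after rounding (limma).

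By sign, 13 of 14 member probe sets were higher after TCDD in WT (55.3% of all probe sets were) and 7 of 14 in KO (57.0% of all were). The medians were 0.06 in WT and 0.02 in KO, beside 0.03 over all probe sets in each genotype. Among the gene lists described below, 13 of 15 bHLH-PAS relatives read higher after TCDD in WT (median 0.11, and −0.04 in KO). So did 11 of 15 B and plasma cell markers, but 4 of 11 T cell receptor and CD4 identity genes and 2 of 10 PARP relatives. A high share of rises in WT was thus not particular to the members. For the difference of the TCDD effects (WT minus KO), 0 members had an unadjusted p under 0.05, against 2.78% of all probe sets. That of Ahrr was 0.54 (95% interval −0.03 to 1.11, unadjusted p = 0.0614, limma, BH adjusted p = 0.998) and that of Cyp1a1 0.05 (−0.28 to 0.38). With 2 arrays a group the intervals are wide, and the missed thresholds do not show that the genotypes respond alike.

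**Figure D4:**
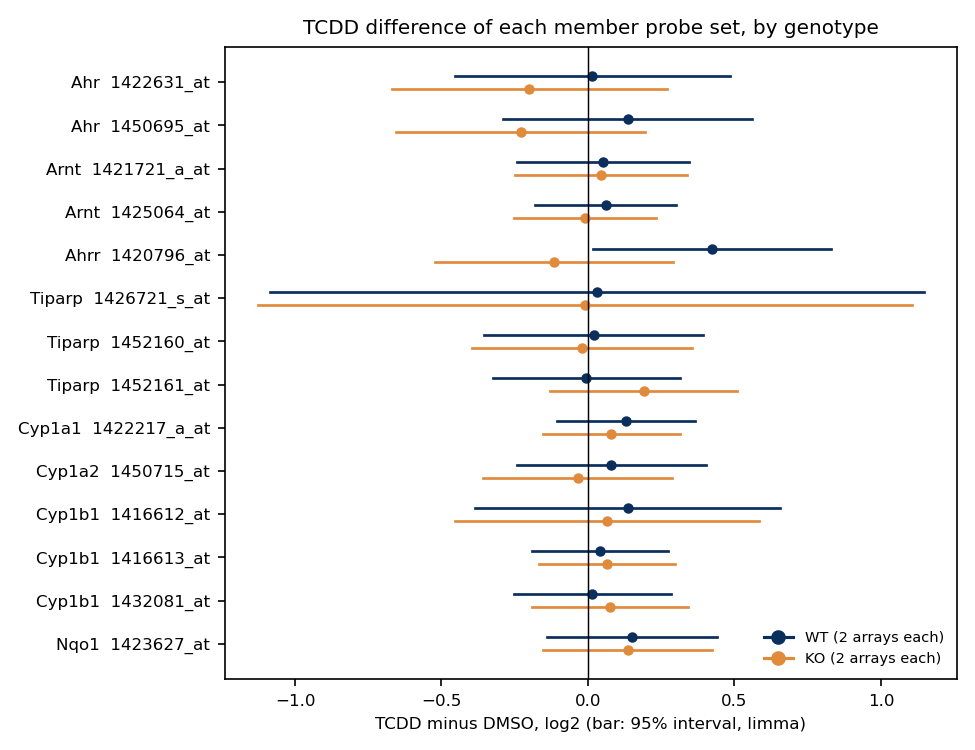
TCDD minus DMSO difference of each member probe set in log2 units in WT (blue) and KO (orange), with 95% intervals from limma (2 arrays each). In WT the interval of Ahrr, 0.02 to 0.83, is the one that does not include 0, and after BH adjustment no member passes.

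The array WT TCDD replicate 1 is called WT by its title, source and strain, whereas its description speaks of knockout mice, and it was analysed as WT. Without it the fall of 1452160_at was 1.21 (limma, BH adjusted p = 0.00895). With the actin gap as a covariate, Tiparp 1452160_at fell by 1.14 and 1452161_at by 0.46 (limma, BH adjusted p = 0.00400 and 0.0264), and without both WT arrays numbered 2, which had the lowest actin gaps of the 8, the differences were −1.10 and −0.51 (0.0402 and 0.167), beside −0.71 for 1426721_s_at (0.188).

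Some markers of other cells were called higher in KO, while others of the same lists were not. By sign, 16 of 19 myeloid and dendritic, 11 of 15 B and plasma cell and 8 of 11 NK and CD8 T cell markers read higher in KO. The others read lower, down to −0.65 (S100a8), −0.325 (Ms4a1) and −0.25 (Eomes) in the same order of lists. Of 19 measured myeloid and dendritic markers, 11 were called higher in KO and 0 lower, among them Irf8 (by 2.97), Tyrobp (by 2.49) and Mpeg1 (by 2.27). Their mean log2 level ran from 7.71 to 8.08 on KO arrays and from 6.73 to 6.91 on WT arrays. The macrophage lysozyme Lyz2 read 7.49 ± 0.56 in KO and 7.36 ± 0.61 in WT. Of 15 B and plasma cell markers, 6 were called higher (Cd74 by 2.76, H2-Ab1 by 2.11 and H2-Aa by 1.72, shared with dendritic cells, led) and 0 lower, with mean levels of 7.65 to 8.35 in KO and 6.98 to 7.24 in WT, while Cd79a read 5.59 ± 0.20 and 5.67 ± 0.05. Of 11 NK and CD8 T cell markers, 2 were called higher (Nkg7 by 1.38 and Ccl5 by 1.22; mean levels 6.89 to 7.35 and 6.71 to 6.89; Cd8a 5.62 ± 0.06 and 5.77 ± 0.07), and of 5 erythroid markers 0 (6.36 to 6.72 and 6.16 to 6.44; Hba-a1 5.32 ± 0.18 and 5.23 ± 0.10). All 5 erythroid markers read higher in KO, by 0.07 (Epor) to 0.63 (Slc4a1; limma, BH adjusted p = 0.0920). Of their 8 probe sets, 1 was called higher. The Hba-a1 values lay below the median of all probe set means (6.13). Over 12393 genes, each by its brightest probe set, 1.90% were called higher and 1.33% lower. Of 11 T cell receptor and CD4 identity genes 0 were called (mean levels 9.50 to 9.66 in KO and 9.29 to 9.72 in WT), with Cd3e at 9.36 ± 0.17 and 9.53 ± 0.09 and Cd4 at 8.16 ± 0.09 and 8.37 ± 0.28 (SD, n = 4 each). Of these 11 genes, 6 read higher in KO and 5 lower (median 0.0025). They ran from −0.36 (Cd28) to 0.90 (Cd5; limma, BH adjusted p = 0.0644). A dimmer Cd4 probe set differed by 0.175. The part of other cells in the Ahr and Tiparp values was not tested.

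Around the receptor, 2 of 14 measured chaperones and coregulators were called. Relb, an NF-κB subunit that can pair with the Ah receptor, read 6.75, 6.1, 6.56 and 6.62 in WT (DMSO 1 and 2, TCDD 1 and 2) and 7.70, 7.60, 7.91 and 7.84 in KO, a rise of 1.26 (SE 0.14; limma, BH adjusted p = 0.00793). Relb is also abundant in dendritic cells, whose markers are among those given above, and the part of such cells in the Relb values was not tested. Nrip1, the nuclear receptor coregulator RIP140, read 7.22, 7.76, 7.03 and 7.20 in WT and 5.76, 6.49, 6.36 and 6.33 in KO and fell by 1.07 (SE 0.20; limma, BH adjusted p = 0.0353). Its other probe set differed by −0.16 and did not pass. The Nrip1 call was lost without WT DMSO replicate 1 (adjusted p = 0.0585), WT DMSO replicate 2 (0.0747), WT TCDD replicate 2 (0.0814), KO TCDD replicate 1 (0.0894) or KO TCDD replicate 2 (0.101), while Relb was called without any 1 array (limma, BH). The Nrip1 call was also lost in the model of 4 group means and without both WT arrays numbered 2 (limma, BH adjusted p = 0.0728 and 0.155). From the arrays of 1 treatment alone neither Relb nor Nrip1 was called. The list's median was −0.01, beside 0.005 over all genes.

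Of 20 other reported target genes, 1 was called. Ccng2, an atypical cyclin whose transcript TCDD is known to raise in liver, read 9.62, 9.83, 9.15 and 9.92 in WT and 9.02, 7.84, 8.42 and 8.23 in KO. All KO arrays lay below all WT arrays, and it fell by 1.25 (SE 0.26; limma, BH adjusted p = 0.0444). A dimmer Ccng2 probe set differed by −0.05. The call was lost after median centring (adjusted p = 0.0551) and without WT DMSO replicate 1 (0.0773), WT DMSO replicate 2 (0.115), WT TCDD replicate 2 (0.109), KO DMSO replicate 2 (0.0726), KO TCDD replicate 1 (0.119) or KO TCDD replicate 2 (0.131; limma, BH). It was also lost in the model of 4 group means and without both WT arrays numbered 2 (limma, BH adjusted p = 0.107 and 0.229), and from the arrays of 1 treatment alone. After TCDD in WT, Ccng2 differed by −0.19 and did not pass (unadjusted p = 0.658, limma, BH adjusted p = 0.997). With 2 arrays a group this does not show that a rise was absent. In WT, 14 of these 20 genes read higher after TCDD (median 0.11 beside 0.03 over all genes), 0 called, and in KO the median was −0.03. The bHLH-PAS relatives had nearly the same medians, 0.11 in WT and −0.04 in KO, with 13 of 15 genes higher in WT.

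The remaining relatives had 0 calls. Of 15 bHLH-PAS relatives, which share the receptor's DNA-binding and dimer fold, 0 were called (median 0.07), and those with the smallest p were Hif1a, the hypoxia factor that also pairs with ARNT, at −0.47 and Sim1 at −0.24 (limma, BH adjusted p = 0.217 and 0.221). Dimmer Hif1a probe sets differed by −0.48 (limma, BH adjusted p = 0.0781), −0.08 and 0.0125. A dimmer probe set of Sim1 differed by −0.035. Of 10 PARP relatives of Tiparp, 0 were called (median −0.03), with Parp14 at 0.45 and Parp3 at 0.48 (0.0567 and 0.115). The other Parp3 probe set differed by 0.145 (limma, BH adjusted p = 0.426). Of 6 NRF2 targets beside Nqo1, 0 were called (median 0.04), with Gclc, of glutathione synthesis, at −0.38 and Hmox1, of haem breakdown, at 0.31 (0.166 and 0.211). The other Gclc probe set differed by −0.435 (limma, BH adjusted p = 0.131).

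By the Pearson correlation of levels over the 8 arrays, the genes most like Tiparp 1452160_at were Sugp1 (0.983), Itch (0.976) and Fyb (0.975), and those most like 1452161_at were Rps28 (0.988), Cab39 (0.966) and Nfatc1 (0.957). Those most like 1426721_s_at were others: Dusp10 (0.986), Slc38a2 (0.970) and Dnajb4 (0.960). For Ahr 1422631_at they were Casp4 (0.970), Tsc22d1 (0.964) and Ing2 (0.957), and for 1450695_at Myl4 (0.986), Stap2 (0.982) and Speer3 (0.979). These are the highest of 10319 or 10320 probe sets on the same 8 arrays and are given as descriptions.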

How the data were processed

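Per the submitters' processing notes, the authors made log2 expression values with RMA in the affy package, and these deposited values were used as given. RMA corrects background, normalises arrays to each other and summarises each probe set. Versions and the array's probe positions are not given in the sources used here. Groups come from sample titles. Of 22690 rows, 64 Affymetrix controls were left out. Genes come from the platform annotation, in which 20380 tested probe sets had 1 symbol, 691 several and 1555 none. Promoters come from the RefSeq table (GRCm38.p6, 7 of 8 members matched).

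Genotypes were compared over all 8 arrays, since the series' design text pools treatments, and TCDD with DMSO in a model of 4 group means, with limma 3.58.1 (R 4.3.3, lmFit and eBayes), BH adjusted over 22626 probe sets. The fits were tested on simulated data. Single values also had an exact two-sided permutation test over 70 arrangements of arrays (smallest p 0.0286; 2 against 2 allow 0.333). Lists use each gene's brightest probe set, whereas members are shown by every probe set. By the list rule Tiparp would be read on 1426721_s_at, which was not called. At most 2.85% of values were identical in a pair of arrays, so no array was a copy. The number of arrays limits the precision. The members, lists, tests and alternatives were chosen with earlier results of these data known. The comparison of probe sets within a gene was added after their values were seen. Named in the lists were called genes, or the 2 with the smallest p where none was called, and for markers up to 3 called genes and 6 fixed ones. The 3 most correlated genes were named for member probe sets at or above the median level.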

Additional observations from a re-analysis of the deposited data

How the results depend on the processing

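The 2 called members in KO against WT became 1 (Tiparp 1452160_at) in the model of 4 group means, with trend and robust settings and when both WT arrays numbered 2 were dropped, and 0 from the DMSO arrays alone and from the TCDD arrays alone, which have 2 arrays a side. They became 1 to 2 when each array was left out, 3 after a further quantile normalization and 3 at a threshold of 0.1. The fits from 1 treatment, without both WT arrays numbered 2 and with 1 array left out hold fewer arrays. The model of 4 group means and the trend and robust settings kept all 8. The cause of these changes was not tested. Tiparp 1452160_at kept its direction under the 19 alternatives other than the threshold of 0.1, from −1.21 to −1.08, and was called in 17 of them. Of all 14 member probe sets in KO against WT, 0 called differences changed sign, and 25 of 271 values, none called, did. TCDD in WT, in KO and their difference had 0 called members in every fit, with 28 of 229, 12 of 229 and 28 of 215 values changing sign. Leaving out dim probe sets removes 9 of the 14. With the replicate number as a block, 2 members were called (Tiparp 1452160_at, limma, BH adjusted p = 0.00933, and 1452161_at, 0.0377). The number may not pair arrays: the differences between arrays 1 and 2 of a group correlated from −0.293 (WT DMSO with KO DMSO) to 0.626 (WT DMSO with WT TCDD). Counting every probe set of each listed gene, 27 marker probe sets of other cell types were called higher (19 genes by their brightest) and, in the pathway lists, 1 was called higher (1 gene) and 3 lower (2 genes).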
